A study of Mus musculus with 14 samples.

Results

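The 10 genes described here are mouse counterparts of human genes at Alzheimer disease risk loci that microglia, the resident macrophages of the brain, can express: Bin1, Picalm, Sorl1, Cd2ap, Rin3, Abi3, Ptk2b, Cass4, Abca7 and Clu. They were taken by gene symbol, with earlier results of these data known, and all 10 were found among the 24394 named genes of the table. The microglia came from C57BL/6 mice aged 18 months whose cerebrospinal fluid had received antibody from an osmotic pump for 1 month, either an antibody that blocks CD22 (anti-CD22, 7 libraries) or a control immunoglobulin (IgG, 7 libraries). All mice of both groups thus carried a pump and a cannula, and the microglia were sorted as about 20000 live CD11b+ CD45lo cells from the side of the brain opposite the cannula. The labels number the libraries within each group but do not say that each number is a separate mouse, so p-values measure the spread between these libraries, which may be in part technical. CD22 is a sialic acid binding receptor of the Siglec family, and the comparison asks how its blockade for a month altered transcripts of aged microglia.

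As background, most genes at these loci act where a cell takes up and sorts membrane cargo or moves its surface. Clathrin adaptors, membrane-bending proteins and the small GTPase Rab5 bring receptors into early endosomes, and sorting receptors with the retromer then return cargo from there to the Golgi or the cell surface. In microglia the same steps, with the actin cytoskeleton, adhesion kinases and lipid transporters, serve the uptake of debris, lipoproteins and amyloid.

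The values are normalized counts, meaning reads per gene divided by 1 factor per library. Whole reads could be recovered for 13 libraries, which held between 20221836 and 38101421 reads, with a mean of 30426402 ± 4368746 for anti-CD22 (SD, n = 6) and 27087573 ± 4459853 for IgG (SD, n = 7). All 7 microglial markers reported (P2ry12, Tmem119, Cx3cr1, Csf1r, Sall1, Fcrls and Siglech) were above 0 in every library. Cd22 itself was 1481 ± 184 normalized counts in anti-CD22 and 1469 ± 279 in IgG libraries (SD, n = 7 each), which does not check an antibody that acts on the protein. Of 11646 genes with a mean of at least 10 normalized counts, 1 had an adjusted p under 0.05 (limma with Benjamini-Hochberg adjustment, two-sided), and 30, or 0.258%, had groups that did not overlap. One property of the libraries touches several genes below. In anti-CD22 replicates 1, 2 and 3, long transcripts stood high and short ones low relative to each gene's mean, with a correlation across genes (rho) between a library's values and transcript length of 0.329, 0.30 and 0.337, against -0.28 to 0.15 in the other 11 libraries. The rho averaged 0.132 ± 0.228 over anti-CD22 and -0.118 ± 0.103 over IgG libraries (SD, n = 7 each, exact permutation test, two-sided p = 0.0274). The log2 fold change of anti-CD22 over IgG likewise followed length (rho of 0.379) and GC content (rho of -0.331), as a description across genes, which share these libraries and are no replicates. The difference of each of the 10 genes is therefore given also with this trend on length and GC removed from every library, and without anti-CD22 replicates 1 to 3.

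The 10 genes span the range over which that trend runs. Picalm has a longest coding transcript of 8209 bases at 42.1% GC, Cd2ap one of 5364 bases at 38.6%, Sorl1 one of 10715 bases at 50.7% and Abi3 one of 4006 bases at 59.7%. A stretch of 60 bases from the middle of each coding sequence is shown because the 3 genes of the 10 with an unadjusted p under 0.05 (Cd2ap, Sorl1 and Abi3) and Picalm, whose values split the anti-CD22 libraries, differ in base composition (GENCODE vM21 on GRCm38, 5′ to 3′, G and C in capitals).
Cd2ap: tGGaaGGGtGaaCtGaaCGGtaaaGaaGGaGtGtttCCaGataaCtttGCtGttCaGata
Picalm: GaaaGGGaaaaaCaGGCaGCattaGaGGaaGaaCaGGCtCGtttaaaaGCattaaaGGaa
Sorl1: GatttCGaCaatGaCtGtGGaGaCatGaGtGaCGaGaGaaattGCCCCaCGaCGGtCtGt
Abi3: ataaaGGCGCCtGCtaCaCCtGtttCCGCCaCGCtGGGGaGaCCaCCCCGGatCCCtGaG
G and C make up 41.7% of the Cd2ap stretch, 40% of the Picalm stretch, 50% of the Sorl1 stretch and 63.3% of the Abi3 stretch. The other transcripts are shorter than that of Picalm and richer in GC than that of Cd2ap, from Clu with 1810 bases at 55.6% GC and Bin1 with 2406 bases at 58.0% to Abca7 with 6696 bases at 58.9%.

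After a month of CD22 blockade none of the 10 genes differed from IgG by enough to pass the test across all genes. No gene of the 10 had an adjusted p under 0.05 in limma, where 0.00859% of all genes tested did, nor in edgeR or DESeq2 on recovered reads, where 0 and 0.457% did. An unadjusted p under 0.05 was found for 3 of the 10, Sorl1 and Cd2ap with higher and Abi3 with lower means under anti-CD22, against 12.8% of all genes tested; edgeR gave such a p for 0 of the 10 and 8.82% of all genes, and DESeq2 for 0 of the 10 and 8.37%. The log2 fold change was above 0 for 7 of the 10, where it was so for 50.2% of all genes tested. Its median over the 10 was 0.06, beside 0.00 over all genes tested, and it was 0.02 beside -0.01 once the trend was removed. The 2 groups overlapped for each of the 10 genes. Over all genes tested, the 95% interval of a log2 fold change reached a median of 0.28 to either side. A gene with an interval of that width would need a difference above 0.28 for the interval to leave out 0. The width differed between genes, with an SE from 0.0642 for Bin1 to 0.432 for Clu among the 10. Of the 10 genes, only Sorl1, Cd2ap and Abi3 had an interval, not adjusted for the number of genes, that left out 0.

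**Figure D1:**
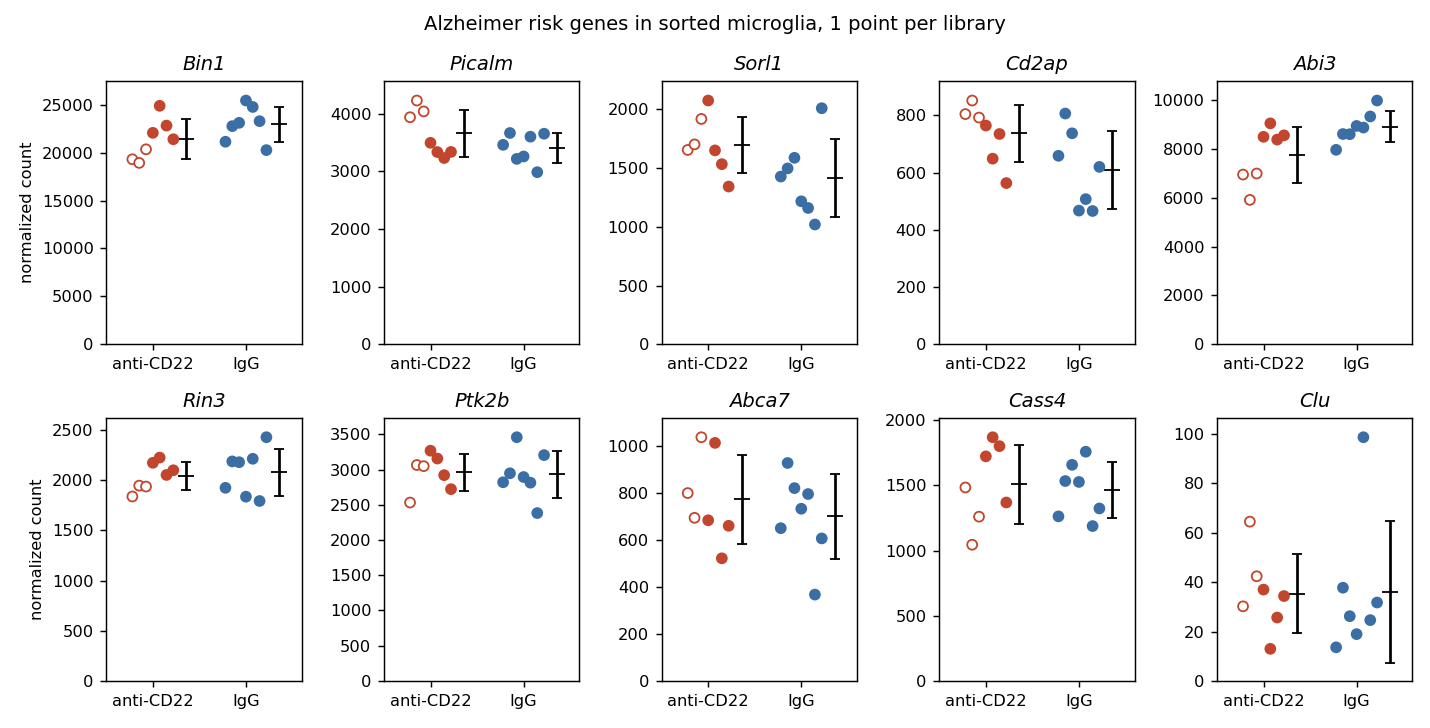
Normalized count (vertical axes, from 0) of each risk gene, 1 point per library, for 7 anti-CD22 (red) and 7 IgG (blue) libraries; bars give the mean ± SD and open red points are anti-CD22 replicates 1 to 3. The open points lie below every IgG library for Abi3 and above every IgG library for Picalm, while the groups overlap for all 10 genes.

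Per kilobase of its longest coding transcript, Bin1 stood far above the rest with 9226 ± 856 normalized counts per kb over all 14 libraries (SD), higher than 98.7% of genes tested. Abi3 followed with 2080.5 ± 267 per kb, then Ptk2b with 730.2 ± 71.4, Rin3 with 529 ± 47.7, Picalm with 429.9 ± 42.6 and Cass4 with 398 ± 67.9. Picalm and Cass4 did not differ beyond their spread. Lower still were Sorl1 with 145 ± 29.2 per kb, Cd2ap with 125 ± 24.6 and Abca7 with 109.9 ± 27.3, and these 3 overlapped within 1 SD. Clu was lowest of the 10 at 19.7 ± 12.3 per kb, near the low end of all genes tested (14 percentile).

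Among the genes of membrane uptake, Bin1 on chromosome 18 encodes an amphiphysin family protein that bends membranes and acts in endocytosis. Its lowest, median and highest values were 18945, 21416 and 24907 normalized counts in anti-CD22 and 20281, 23129 and 25460.2 in IgG libraries. The groups overlapped over most of their range, and 1 of 7 anti-CD22 libraries was above the IgG median. The log2 fold change was -0.10 (SE 0.0642, 95% interval -0.24 to 0.03, adjusted p = 0.50, limma), and it was -0.02 with the trend removed and -0.01 without anti-CD22 replicates 1 to 3, which held 19323, 18945 and 20363. The interval allows a ratio of 0.848 to 1.02 between groups. In libraries of sorted cells, fewer cells of a type and less RNA per cell cannot be told apart. Oligodendrocytes also express Bin1, and 7 markers of that cell type summed to 4949 to 5649 normalized counts in anti-CD22 and 5451 to 6710 in IgG libraries. Most of that sum was Cnp, with a mean of 3761. Mbp and Mag, with means of 974 and 878, were like Cnp above 0 in every library. Mog was at 0 in 7 libraries, Mobp in 3, Cldn11 in 12 and Ugt8a in 13 of 14. The part of these cells in the Bin1 values was not tested. A long non-coding gene on the opposite strand, A830052D11Rik with a mean of 38.9, overlaps Bin1, and the library kit does not mark strand.

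Picalm (chr7:90130213-90213465, GRCm38, plus strand) encodes a clathrin assembly protein that sizes coated vesicles. Its lowest, median and highest values were 3229, 3492 and 4226 normalized counts in anti-CD22 and 2983, 3457 and 3663 in IgG libraries. Anti-CD22 replicates 1, 2 and 3 had 3936, 4226 and 4037, above every IgG library, and the other 4 anti-CD22 libraries had 3229 to 3492, within the IgG range. As deposited, the fold change of Picalm on the log2 scale was 0.10 (SE 0.0732), with a 95% interval of -0.05 to 0.25 and an adjusted p of 0.577. It turned to -0.12 (adjusted p = 0.596) once this trend was removed and to -0.02 without these 3 libraries, so no direction holds for Picalm. Its neuronal relative Snap91 was near 0 in both groups.

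Cd2ap (chr17:42792951-42876665, minus strand) encodes an adaptor that links receptors to endocytosis and the actin cytoskeleton. It had 563, 764 and 852 normalized counts as the lowest, median and highest of the anti-CD22 libraries, against 465.6, 619.9 and 806 in IgG libraries. The means were 737 ± 99.6 in anti-CD22 and 609 ± 135 in IgG (SD, n = 7 each), and 6 of 7 anti-CD22 libraries were above the IgG median. IgG replicates 4, 5 and 6 were lowest, with 467, 507 and 465.6, below every anti-CD22 library. The log2 fold change was 0.29 (SE 0.135, unadjusted p = 0.0429, adjusted p = 0.379, limma), a ratio of 1.23 with an interval of 1.01 to 1.49. With the trend removed it was 0.08 (adjusted p = 0.881), and without anti-CD22 replicates 1 to 3 it was 0.17. Per kb of transcript, Cd2ap had 137 ± 18.6 normalized counts in anti-CD22 and 114 ± 25.1 in IgG libraries (SD, n = 7 each), below the related adaptor gene Sh3kbp1, which ran from 565 to 698 per kb in anti-CD22 and from 545 to 752 in IgG libraries.

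Sorl1 (chr9:41964720-42124297, minus strand) encodes a sorting receptor of the VPS10 family that returns amyloid precursor protein and other cargo from endosomes with the retromer. Its lowest, median and highest values were 1343, 1655 and 2076 normalized counts in anti-CD22 and 1019.7, 1428 and 2010.1 in IgG libraries. The 3 lowest of all 14 were again IgG replicates 4, 5 and 6 with 1217, 1160.3 and 1019.7, while IgG replicate 7 was second highest of all. The means were 1697 ± 241 in anti-CD22 and 1417 ± 329 in IgG (SD, n = 7 each). Between these means the log2 fold change was 0.28 (SE 0.128, 95% interval 0.01 to 0.55, unadjusted p = 0.0413, adjusted p = 0.376, limma). It was 0.11 with the trend removed (adjusted p = 0.784) and 0.23 without anti-CD22 replicates 1 to 3. The difference for Sorl1 and for Cd2ap thus kept its sign in both recalculations but was smaller.

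Rin3 (chr12:102283048-102390855, plus strand) encodes an exchange factor that switches on Rab5 and binds Bin1 protein. Its lowest, median and highest values were 1837, 2051 and 2224 normalized counts in anti-CD22 and 1792, 2178 and 2427 in IgG libraries, and the anti-CD22 values lay wholly within the IgG range. Its log2 fold change was -0.02 (adjusted p = 0.921), with an interval that allows a ratio of 0.880 to 1.1, and it was 0.01 with the trend removed and 0.05 without anti-CD22 replicates 1 to 3.

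**Figure D2:**
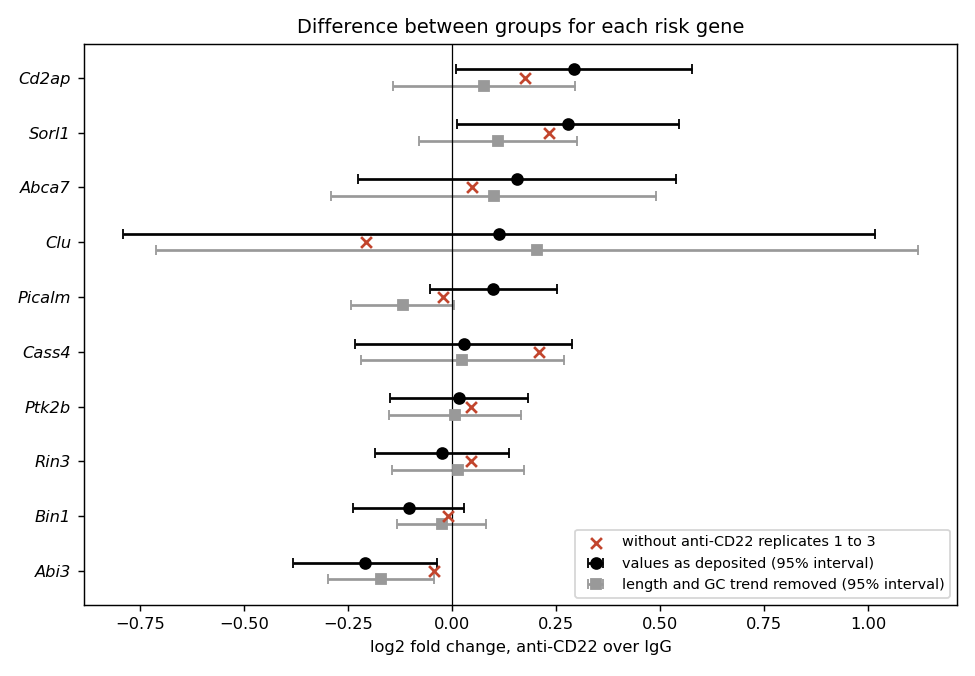
Log2 fold change of anti-CD22 over IgG (horizontal axis) for each risk gene, with the 95% interval, from the values as deposited (black) and with the length and GC trend removed (grey); crosses leave out anti-CD22 replicates 1 to 3. Cd2ap and Sorl1 lie at 0.29 and 0.28 and Abi3 at -0.21 as deposited, and with the trend removed they lie at 0.08, 0.11 and -0.17, while Picalm and Rin3 change sign.

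Of the genes for actin and adhesion, Abi3 (chr11:95830074-95842476, minus strand) encodes a component of the WAVE complex, which starts branched actin networks. Its lowest, median and highest values were 5914, 8385 and 9050.4 normalized counts in anti-CD22 and 7965, 8878 and 9986 in IgG libraries. Anti-CD22 replicates 1, 2 and 3 had 6952, 5914 and 6995, below every IgG library. The other 4 anti-CD22 libraries had 8385 to 9050.4, inside the IgG range. The means were 7765 ± 1146 in anti-CD22 and 8904 ± 634 in IgG (SD, n = 7 each), and the log2 fold change was -0.21 (SE 0.0828, 95% interval -0.38 to -0.04, unadjusted p = 0.0207, adjusted p = 0.324, limma). With the trend removed it was -0.17 (SE 0.0605, unadjusted p = 0.0106, adjusted p = 0.449), and Abi3 was then the only 1 of the 10 with an unadjusted p under 0.05, against 8.69% of genes in that fit. Without anti-CD22 replicates 1 to 3 it was -0.04, and 0 of the 10 had such a p, against 4.99% of all genes. The span of Abi3 overlaps Zfp652, Phospho1 and Gngt2 on the opposite strand, with means of 396, 47.0 and 659.8. Only spans were compared, and any reads from exons shared with Abi3 cannot be told apart without strand.

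Ptk2b (chr14:66153257-66281052, minus strand) encodes the calcium-activated kinase Pyk2, a relative of focal adhesion kinase. It had 2532, 3049 and 3268 normalized counts as the lowest, median and highest of the anti-CD22 libraries and 2383, 2895 and 3459.6 of the IgG libraries. On the log2 scale the fold change was 0.02 (adjusted p = 0.948), with an interval that allows a ratio of 0.903 to 1.13, and it was 0.01 with the trend removed and 0.05 without anti-CD22 replicates 1 to 3. Cass4 (chr2:172393794-172433757, plus strand) encodes a scaffold of the CAS family, which binds such kinases at adhesion sites. It had 1044, 1484 and 1869 normalized counts in anti-CD22 and 1188, 1526 and 1758 in IgG libraries, with a log2 fold change of 0.03 (adjusted p = 0.945), or 0.02 with the trend removed. The lowest Cass4 value was that of anti-CD22 replicate 2, and without anti-CD22 replicates 1 to 3 the log2 fold change was 0.21.

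Abca7 (chr10:79996494-80015572, plus strand) encodes a lipid transporter of the ABCA family with a role in phagocytosis. Its lowest, median and highest values were 521, 694 and 1036 normalized counts in anti-CD22 and 367, 732 and 927 in IgG libraries. Both groups were broadly spread, and the log2 fold change was 0.16 (SE 0.183, 95% interval -0.23 to 0.54, adjusted p = 0.743). It was 0.10 with the trend removed and 0.05 without anti-CD22 replicates 1 to 3. Its SD within groups, 0.40 on the log2 scale, was higher than that of 95.2% of the 500 genes nearest to it in level. By the same measure Sorl1 was at the 93.2 percentile with 0.27, Cass4 at 90.6 with 0.26 and Abi3 at 87.4 with 0.17, while Rin3 was at 31.4 with 0.13.

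Clu (chr14:65968483-65981547, plus strand), a neighbour of Ptk2b at a distance of 171709 bases, encodes the secreted chaperone clusterin, which in brain is made mainly by astrocytes. It was low in these libraries, with 13, 34.4 and 64.5 normalized counts as the lowest, median and highest in anti-CD22 and 13.6, 26.2 and 98.7 in IgG. On the log2 scale its fold change was 0.11 (SE 0.432, adjusted p = 0.936), with a 95% interval from -0.79 to 1.02. That interval allows a ratio of 0.578 to 2.02, so a difference within those bounds was not detectable at this depth. It was 0.20 with the trend removed, 0.40 without IgG replicate 5, which held the highest value, and -0.21 without anti-CD22 replicates 1 to 3, so no direction holds for Clu. The 8 astrocyte markers summed to 6657 to 8537 normalized counts in anti-CD22 and 5927 to 8617 in IgG libraries. Nearly all of that was Slc1a3, with a mean of 7473. Aqp4 was at 0 in 9 of 14 libraries, Slc1a2 in 7, Gja1 in 6, Slc4a4 in 11, Gfap in 2 and Aldh1l1 in 1, and the part of astrocyte RNA in the Clu values was not tested.

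**Figure D3:**
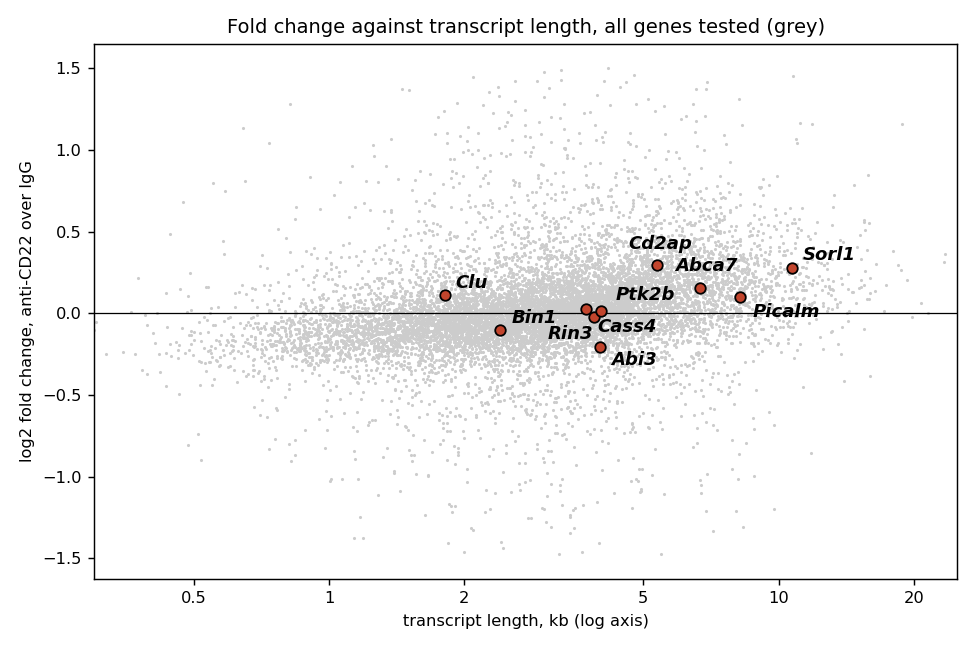
Log2 fold change of anti-CD22 over IgG (vertical axis) against the length of the longest coding transcript in kb (horizontal log axis) for 11224 genes tested (grey) and the risk genes (red). Of these, 117 genes more than 1.5 from 0 or beyond the ends of the length axis are not drawn. Cd2ap, Sorl1, Abca7 and Picalm, with the longest transcripts of the 10, have log2 fold changes of 0.29, 0.28, 0.16 and 0.10, and Abi3 lies lowest of the 10 at -0.21.

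The relatives of each gene give the family setting in these cells, again per kb of transcript. Bin2, the other amphiphysin family gene of blood-derived and microglial cells, was 6501 ± 774 per kb in anti-CD22 and 7063 ± 1025 in IgG, beside 8899 ± 869.5 and 9554 ± 763 for Bin1 (SD, n = 7 each), and Amph was at 0 in 13 of 14 libraries. Abi3 was the most abundant of its family, with 1938 ± 286 in anti-CD22 and 2223 ± 158 in IgG, beside 825 ± 129 and 747 ± 66.0 for Abi1 and 186 ± 49.5 and 148 ± 23.2 for Abi2. Rin3 was not, since Rin2 had 2627 ± 235 and 2779 ± 361 and Rinl 1041 ± 135 and 1090.2 ± 69.6 per kb. Ptk2b with 734 ± 63.5 and 727 ± 83.6 per kb stood well above its relative Ptk2 with 46.5 ± 21.1 and 54.9 ± 17.1. Cass4 likewise, with 404 ± 81.8 and 392 ± 56.8, stood above Nedd9 with 21.3 ± 9.85 and 25 ± 22.2, while Bcar1 was at 0 in 9 and Efs in 10 of 14 libraries. Sort1, the sorting receptor sortilin, was 939.9 ± 153 per kb in anti-CD22 and 714 ± 78.2 in IgG, above Sorl1 with 158 ± 22.5 and 132 ± 30.7, and Sorcs1 and Sorcs2 were at 0 in all 14. Abca7, with 115 ± 28.5 and 104 ± 27.1, had lower means than Abca9 with 2748 ± 706 and 2046 ± 253 and Abca1 with 609 ± 119 and 512 ± 133. Abca3 with 227 ± 34.8 and 171 ± 51.5 was also higher. Lower means were those of Abca2, 70.2 ± 15.7 and 58.0 ± 21.5, and Abca5, 4.86 ± 4.64 and 1.51 ± 1.90. None of these relatives had an adjusted p under 0.05, and of those tested Sort1 had the smallest.

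**Figure D4:**
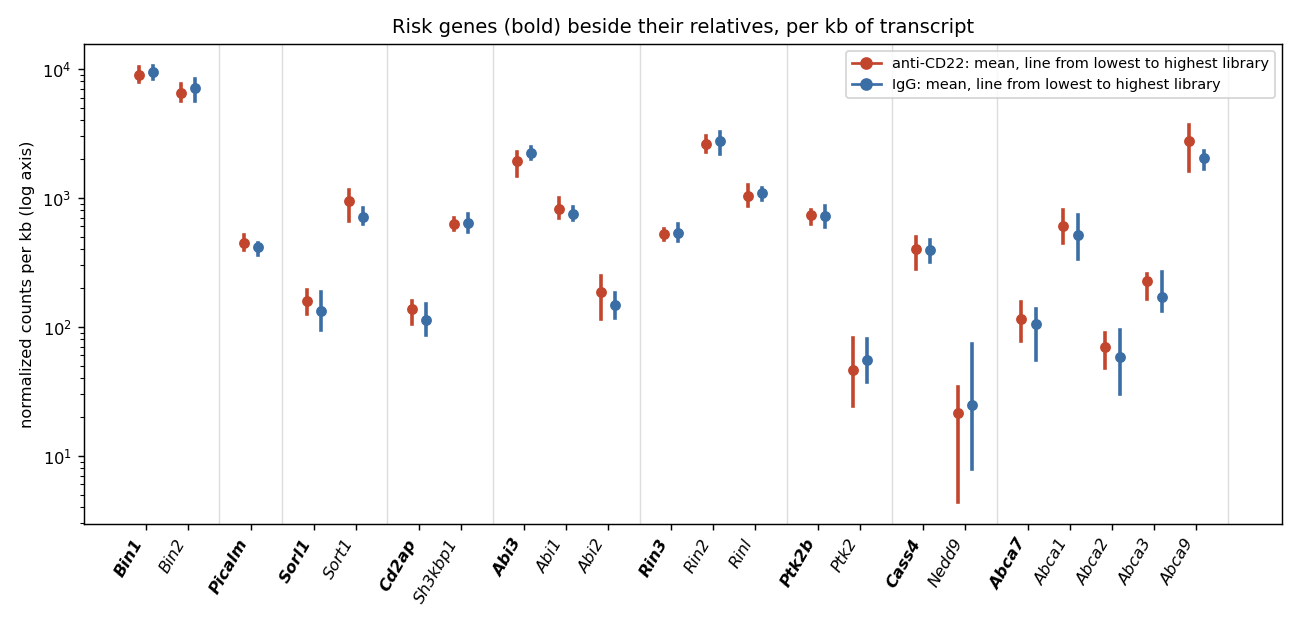
Normalized counts per kb of the longest coding transcript (vertical log axis) for 9 of the risk genes (bold) and those relatives that were above 0 in every library. Dots are means and lines run from the lowest to the highest of 7 anti-CD22 (red) or 7 IgG (blue) libraries. Bin1, Abi3, Ptk2b and Cass4 lie above the relatives drawn beside them, and Sorl1, Cd2ap, Rin3 and Abca7 below at least 1 of theirs.

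The pathways around the 10 genes were counted from lists of their known partners, and no gene of these lists had an adjusted p under 0.05 in limma. At an unadjusted p under 0.05, 6.80% of all genes tested were higher with anti-CD22 and 5.95% lower. Of 31 tested genes of clathrin endocytosis, 4 were higher and 3 lower at that level, with a median log2 fold change of 0.03, or -0.02 with the trend removed. Gak, a kinase that helps strip clathrin coats, averaged 3153 ± 400.0 normalized counts in anti-CD22 and 2537 ± 358 in IgG (log2 fold change 0.31, adjusted p = 0.229), and Synj1, a lipid phosphatase of coat shedding, 960.3 ± 291 and 653 ± 125 (0.52, adjusted p = 0.253). With the trend removed, Gak had 0.27 and Synj1 0.36, and without anti-CD22 replicates 1 to 3 they had 0.24 and 0.24. The unadjusted p (limma) of Gak was 0.00330 as deposited and 0.00237 with the trend removed (adjusted p = 0.333). That of Synj1 was 0.00673 and 0.0108 (adjusted p = 0.452). Of 18 genes of Rab5 and the early endosome, 1 was higher and 0 lower, with a median of 0.06. With the trend removed the median was -0.02, 0 of the 18 had such a p, and 6 had values above 0, where 13 did as deposited. The 1 gene with such a p as deposited was Stam, an endosomal sorting adaptor, with 1094 ± 266 in anti-CD22 and 841 ± 79.1 in IgG (0.35, adjusted p = 0.301), but its log2 fold change was 0.16 with the trend removed and 0.08 without anti-CD22 replicates 1 to 3.

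Among 14 tested VPS10 receptors and retromer genes, 1 was higher and 1 lower, with a median of -0.02, or -0.06 with the trend removed. Sort1 averaged 6425 ± 1043 normalized counts in anti-CD22 and 4879.7 ± 535 in IgG, and 6 of 7 anti-CD22 libraries were above the highest IgG library. Its log2 fold change was 0.39 (SE 0.0978, unadjusted p = 0.000837, adjusted p = 0.185, limma). With the trend removed it was 0.26 (SE 0.0663, unadjusted p = 0.000883, adjusted p = 0.271), and without anti-CD22 replicates 1 to 3 it was 0.27 (SE 0.105, adjusted p = 0.922). Without anti-CD22 replicate 7, which had the lowest Sort1 value of its group, it was 0.47 with an adjusted p of 0.0239. That library also had the lowest rho with transcript length of all 14, -0.28, and the longest Sort1 transcript has 6836 bases. The part of the length trend in that pass was not tested. Snx3, a sorting nexin of the retromer, averaged 3570.3 ± 190.2 in anti-CD22 and 4084 ± 359 in IgG (-0.19, adjusted p = 0.244), and no anti-CD22 library was above the IgG median. Its log2 fold change was -0.10 with the trend removed and -0.14 without anti-CD22 replicates 1 to 3.

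Of 21 genes of the WAVE and Arp2/3 actin machinery, 1 was higher and 3 were lower at an unadjusted p under 0.05, with a median of -0.03, or -0.04 with the trend removed. Brk1, the smallest WAVE subunit, averaged 6217 ± 620.1 in anti-CD22 and 6860.0 ± 422 in IgG (-0.15, adjusted p = 0.366), and Actr2, an Arp2/3 subunit, 8952 ± 964 and 7844 ± 1108 (0.20, adjusted p = 0.372). With the trend removed Brk1 had -0.06 and Actr2 0.08, and without anti-CD22 replicates 1 to 3 they had -0.07 and 0.10. Among 14 genes of focal adhesion kinase and CAS signalling, 11 had log2 fold changes above 0, 2 were higher at an unadjusted p under 0.05 and 0 lower. The list median was 0.19, or 0.10 with the trend removed. Crk, an adaptor that binds CAS proteins, averaged 4921 ± 361 in anti-CD22 and 4004 ± 561 in IgG (0.31, adjusted p = 0.205), and Vcl, which encodes vinculin, 374 ± 52.3 and 283 ± 48.1 (0.41, adjusted p = 0.275). All 7 anti-CD22 libraries were above the IgG median for both. Crk had 0.21 and Vcl 0.30 with the trend removed, and 0.25 and 0.36 without anti-CD22 replicates 1 to 3.

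For lipid export, 10 tested genes held 2 that were higher and 0 lower, with a median of 0.17, or 0.07 with the trend removed. These were Abca3, at 1469.6 ± 225 in anti-CD22 and 1107 ± 333 in IgG (0.44, adjusted p = 0.267), and Abca9, at 17543 ± 4506 and 13060.2 ± 1617 (0.39, adjusted p = 0.289). Abca3 had 0.35 with the trend removed and 0.43 without anti-CD22 replicates 1 to 3. The unadjusted p (limma) of Abca3 was 0.00801 as deposited and 0.00522 with the trend removed (adjusted p = 0.384). That of Abca9 was 0.0104 and 0.0201 (adjusted p = 0.519). For Abca9 the log2 fold change was 0.22 with the trend removed, 0.14 (adjusted p = 0.992) without anti-CD22 replicates 1 to 3, and 0.51 (adjusted p = 0.0455) without anti-CD22 replicate 7. The longest Abca9 transcript has 6384 bases, and the part of the length trend of replicate 7 in that pass was not tested. Of 14 genes of amyloid precursor processing, 1 was higher and 2 lower, with a median of 0.02, or -0.01 with the trend removed. Adam10, an alpha-secretase, averaged 14786 ± 2014 in anti-CD22 and 12453 ± 773 in IgG (0.24, adjusted p = 0.238), and Psenen, a gamma-secretase subunit, 1399 ± 203 and 1647 ± 185 (-0.24, adjusted p = 0.324). Both were closer to 0 in the recalculations, Adam10 at 0.10 and Psenen at -0.12 with the trend removed, and at 0.10 and -0.07 without anti-CD22 replicates 1 to 3. Among 50 tested genes at other Alzheimer risk loci, 7 were higher and 4 lower, and the median was 0.00, or -0.02 with the trend removed.

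How the 10 genes varied together was followed over the 14 libraries after the mean of each group had been taken out, for 45 pairs. None passed a permutation test within groups after adjustment over the 45 pairs, and 12 had an unadjusted p under 0.05. The share of such pairs among genes in general was not computed, so the 12 cannot be read as particular to these genes. Sorl1 and Ptk2b had a Pearson r of 0.741 (permutation p = 0.00573, adjusted p = 0.129) and a rho of 0.785 (permutation p = 0.00223, adjusted p = 0.10). The r was 0.627 without 2 libraries and 0.775 with the length and GC trend removed. Here and below, the 2 libraries left out are those farthest from the median of the gene named first. Libraries extreme in the other gene alone stayed in. Bin1 and Cass4 had an r of 0.739 (permutation p = 0.00541, adjusted p = 0.129) and a rho of 0.714 (permutation p = 0.00804, adjusted p = 0.108), with an r of 0.702 without 2 libraries and 0.443 with the trend removed. For Sorl1 and Cd2ap the r was 0.678 (permutation p = 0.0179, adjusted p = 0.134) and the rho 0.714 (permutation p = 0.0121, adjusted p = 0.108), or an r of 0.754 without 2 libraries and 0.363 with the trend removed. Rin3 and Ptk2b had an r of 0.663 (permutation p = 0.0162, adjusted p = 0.134), or 0.735 with the trend removed. Bin1 and Picalm had an r of -0.667 (permutation p = 0.0168, adjusted p = 0.134). That r turned to 0.32 with the trend removed, and it was -0.35 among the 7 IgG libraries. For Picalm and Abi3 the anti-CD22 libraries fell into the 2 clusters described above, so no pooled value is given, and among the 7 IgG libraries the r was -0.02.

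**Figure D5:**
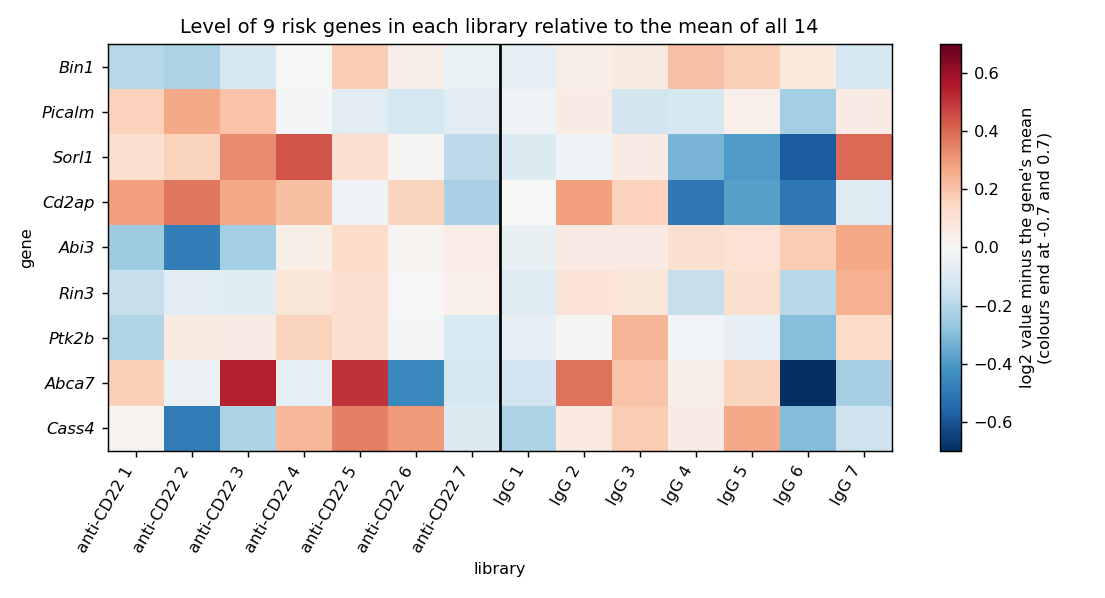
Log2 value of 9 risk genes (rows; Clu is left out for its low counts) in each library (columns, anti-CD22 left of the line and IgG right) minus the gene's mean over all 14, red above and blue below. Sorl1 and Cd2ap are blue in IgG replicates 4, 5 and 6, and Abi3 is blue while Picalm is red in anti-CD22 replicates 1 to 3.

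Sorl1 and Cd2ap were lowest in the same 3 IgG libraries, replicates 4, 5 and 6. In these the rho with transcript length was -0.24, -0.10 and -0.27. The part of length or of the promoters in those low values was not tested. The 250 bases before a RefSeq start of each gene are shown with the GC box GGGCGG, searched on both strands, in capitals (RefSeq, GRCm38.p6, 5′ to 3′ in the direction of the gene). The Sorl1 stretch is chr9:42124298-42124547 and the Cd2ap stretch chr17:42876425-42876674, both on the minus strand. The RefSeq start of Cd2ap lies inside the GENCODE span given above, so most of that stretch is within this span.
Sorl1 promoter: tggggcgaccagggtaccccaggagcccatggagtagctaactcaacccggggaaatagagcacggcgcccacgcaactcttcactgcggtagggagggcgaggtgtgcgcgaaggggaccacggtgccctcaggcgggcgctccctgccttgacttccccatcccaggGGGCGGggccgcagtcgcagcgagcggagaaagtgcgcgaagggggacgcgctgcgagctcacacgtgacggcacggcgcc
Cd2ap promoter: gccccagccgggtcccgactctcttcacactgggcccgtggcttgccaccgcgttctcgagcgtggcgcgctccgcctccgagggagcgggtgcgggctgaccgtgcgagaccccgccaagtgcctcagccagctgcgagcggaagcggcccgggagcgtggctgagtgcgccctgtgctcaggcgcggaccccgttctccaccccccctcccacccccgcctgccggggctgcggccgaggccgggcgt
The Sorl1 stretch has 69.6% GC and 1 GC box, and the Cd2ap stretch 76.4% GC and 0, where the median over 32851 promoters was 52.4% GC and 32.7% held at least 1 GC box. RefSeq lists another Sorl1 start within the gene, whose 250 bases (chr9:42077214-42077463) have 47.2% GC and 0 GC boxes. Of the 8 promoters listed for 6 of the 10 genes, 5 held a GC box. The letters TGANTCA, the motif of AP-1, were in 0 of the 8 and in 6.75% of all promoters, and GAGGAAGT, a motif of PU.1, in 0 of the 8 and 2.44% of all.

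For each of the 10 genes, the genes with the most similar pattern over the 14 libraries were sought among 9428 genes with a mean of at least 100 normalized counts, by Pearson r after group means had been taken out. Closest to Abi3 was Hvcn1, a proton channel gene, with an r of 0.97, or 0.76 with the trend removed. Closest to Sorl1 was Notch1, a receptor gene, with 0.96, or 0.84 with the trend removed, and closest to Bin1 was Med16, a Mediator subunit gene, with 0.94, or 0.87. Picalm was most like Rnf111, a ubiquitin ligase gene, with 0.91, or 0.11 with the trend removed. Ptk2b and Mbnl2 had 0.86, or 0.27 with the trend removed, and Rin3 and Zfp768 had 0.83, or 0.48. Cd2ap was closest to Slc12a2 with 0.91, or 0.74 with the trend removed, and Cass4 to H2afy with 0.90, or 0.88. Clu was closest to Sptlc1 with 0.88, or 0.86, and Abca7 to Homer1 with 0.84, or 0.83. These are the highest of 9428 values each and share libraries and depth, so they describe these libraries only. For Abi3 and Picalm the anti-CD22 libraries fell into the clusters described above. The part of that split in the r of Abi3 with Hvcn1 and of Picalm with Rnf111 was not tested.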

How the data were processed

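Libraries were made with a template-switching kit that does not mark strand and sequenced as read pairs. The submitters' processing notes name bcl2fastq, STAR, DESeq2 and mm10, with no versions used here. The deposited table holds 1 signal value per gene and library, the authors' normalized counts (reads divided by 1 size factor per library). In 13 libraries the values were whole multiples of 1 step within 0.1 reads, which gave back the reads; anti-CD22 replicate 3 had a step too near 1 and was left out of the edgeR and DESeq2 fits. Of 24421 rows, 27 with names turned into dates were left out (at most 0.149% of a library's counts), and 0 columns lacked a sample.

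Groups were compared with limma 3.58.1 (R 4.3.3, trend option, two-sided, Benjamini-Hochberg over 11646 genes with a mean of at least 10) on log2(normalized count + 1), so fold changes of low genes are understated. Alternatives were edgeR 4.0.16 and DESeq2 1.42.0 on recovered reads, other pseudocounts, filters and scalings, natural splines with 5 degrees of freedom on log transcript length and GC subtracted from each library (GENCODE vM21, 96.4% of genes tested had a length), and leaving out libraries. The fits were tested on simulated data. The 10 genes, the lists and the marker genes were chosen with earlier results of these data known. A few marker genes are not reported here. Named besides the 10 were family relatives, up to 2 genes per list with the smallest p, and for likeness the genes with the highest correlation. Intervals cover the spread between libraries. Figures were drawn with matplotlib 3.10.9.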

Additional observations from a re-analysis of the deposited data

Results flagged for a closer look

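Clu in IgG replicate 5 was 98.7 normalized counts, from 94 reads, while the next highest IgG library had 37.7. The gap is large against the range of its group by Dixon's criterion, which was applied to each of the 10 genes in each group. Of these 20 tests 1 was met, and for normally distributed values chance alone meets about 1 in 20. Low counts need not be so distributed. On the log2 scale this value was 6.64, the next highest IgG value 5.28 and the lowest 3.87, where the gap takes up less of the range. In the same library the astrocyte markers Gfap, Gja1, Aldoc and Slc4a4 were 45.2, 46.2, 117 and 14.7 normalized counts, Aqp4 and Aldh1l1 were at 0, and the sum over the 8 astrocyte markers was 8409, within the range of the other libraries. Their part in the Clu value was not tested.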

How the results depend on the processing

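No gene of the 10 passed an adjusted p of 0.05 in limma or in any of the 26 alternatives, where the lowest adjusted p of any was 0.186, and 241 of 259 recalculated log2 fold changes kept their direction. The median over the 10 ran from -0.00 to 0.09. The count of all genes passing, 1 in the limma test, was 0 in edgeR, 40 in DESeq2 on recovered reads, 0 with the length and GC trend removed, 0 without anti-CD22 replicates 1 to 3, and 0 to 43 with 1 library left out, 43 being the count without anti-CD22 replicate 7; the cause was not tested. At an unadjusted p under 0.05, edgeR had 1027 and the trend-removed fit 975. Direction turned for Clu (-0.0700 in edgeR, -0.0745 in DESeq2 and -0.21 without anti-CD22 replicates 1 to 3), Picalm (-0.12 with the trend removed, -0.0208 without those 3) and Rin3 (0.0138 and 0.0463), and for Abi1 (-0.0415) and Rinl (0.0289) without those 3. With 1 library left out, the log2 fold change ran from -0.0282 to 0.11 for Cass4, -0.0657 to 0.40 for Clu, -0.0586 to 0.0143 for Rin3, -0.0316 to 0.0580 for Ptk2b and -0.31 to 0.24 for Nedd9. Only Sort1 and Abca9 among the named genes came to pass, without anti-CD22 replicate 7. Both have long transcripts, and that library had the lowest rho with transcript length of all libraries, -0.28. The part of the length trend in these passes was not tested. Replicate numbers gave no clear pairing of the libraries, though these values cannot exclude one. Same-numbered libraries correlated at -0.38 to 0.34, 2 of 7 over 0.1. The fit with the replicate block passed 2 genes, none of the 10, and 1625 genes had an unadjusted p under 0.05, where 1485 did without the block. Another scaling moved the median of all genes by at most 0.013. Low counts limit Clu, with 14 to 94 reads.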
